A study of Mus musculus with 6 samples.

Results

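The 9 TRP channel genes *Trpm5*, *Trpm4*, *Trpm2*, *Trpm3*, *Trpc1*, *Trpv1*, *Trpv2*, *Trpv4* and *Trpa1* were examined in mouse pancreatic islets with and without the bile acid receptor FXR. They were chosen by name, as the rows of the gene count table that carry these symbols, and are 9 of the 19342 genes in that table. Islets were isolated from FXR+/+ and FXR-/- mice, both labelled as 3 months of age, and either genotype was sequenced as 1 female and 2 male libraries (n = 3 libraries per genotype). The FXR-/- mice lack FXR, which *Nr1h4* encodes. No cell type or promoter is named for the deletion, so a difference in islets need not have arisen in islet cells. The labels do not say how many mice a library holds, and no treatment other than islet isolation is named for either genotype. The p-values given measure the spread between these libraries, which may in part be technical.

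TRP channels are cation channels of the plasma membrane and of intracellular membranes, and most of them let calcium pass. In the β-cell, closure of KATP channels by glucose metabolism starts the depolarization that opens calcium channels, and TRP channels are known as a source of further depolarizing current or of calcium entry. TRPM4 and TRPM5 are opened by intracellular calcium and carry sodium and potassium but no calcium, TRPM2 is gated by ADP-ribose, TRPM3 by steroids and heat, TRPV1, TRPV2 and TRPV4 by heat, vanilloids, swelling or stretch, and TRPA1 by reactive irritants, while TRPC1 is linked to receptor- and store-operated calcium entry.

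FXR is a transcription factor that binds DNA mostly as a heterodimer with RXR, and its best known element is an inverted repeat of AGGTCA with 1 base between the repeats, AGGTCANTGACCT. The 250 bases upstream of the start sites in RefSeq (GRCm38.p6) were searched on both strands for this repeat and for AGGTCA alone, which is contained in the repeat. Sequence was found for 7 of the 9 genes, namely *Trpm5*, *Trpm2*, *Trpm3*, *Trpc1*, *Trpv1*, *Trpv2* and *Trpv4*, with 10 start sites in all. The repeat was in 0 of these 10 windows and in 2 of all 32851 windows (0.00609%). AGGTCA alone was in 1 of the 10, upstream of the second *Trpm3* start site, and in 14.0% of all windows. A match of letters is a description of the sequence and not a binding site, and a window without a match says nothing about FXR. Shown 5′ to 3′ on the strand of the gene are the windows of *Trpm5*, the most abundant of the genes, and of *Trpm2* and *Trpv4*, which had the lowest p-values between the genotypes, followed by the 30 bases around the match at *Trpm3*, where capitals mark AGGTCA read on the opposite strand.
Trpm5, chr7:143094643-143094892, minus strand: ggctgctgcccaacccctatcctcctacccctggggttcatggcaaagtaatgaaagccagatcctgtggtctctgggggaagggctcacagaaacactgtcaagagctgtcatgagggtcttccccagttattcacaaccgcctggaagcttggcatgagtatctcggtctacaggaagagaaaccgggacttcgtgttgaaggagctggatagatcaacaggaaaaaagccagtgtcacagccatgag
Trpm2, chr10:77969873-77970122, minus strand: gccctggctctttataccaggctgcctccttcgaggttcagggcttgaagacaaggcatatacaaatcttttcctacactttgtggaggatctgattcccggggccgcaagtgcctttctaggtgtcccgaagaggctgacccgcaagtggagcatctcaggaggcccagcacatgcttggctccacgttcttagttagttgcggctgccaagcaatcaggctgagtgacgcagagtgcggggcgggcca
Trpv4, chr5:114658422-114658671, minus strand: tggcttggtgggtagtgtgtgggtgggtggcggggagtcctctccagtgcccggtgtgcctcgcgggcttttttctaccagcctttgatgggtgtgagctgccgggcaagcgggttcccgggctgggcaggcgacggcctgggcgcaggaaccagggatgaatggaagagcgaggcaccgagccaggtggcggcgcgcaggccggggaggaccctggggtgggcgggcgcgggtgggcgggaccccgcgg
Trpm3, chr19:22447962-22447991, plus strand: ccccccaacgccTGACCTgtgtttgcagaa
The *Trpv4* window was the richest in G and C of the 10, at 72.0%, that of *Trpm2* had 56.8% and that of *Trpm5* 52.8%, where the median of all windows was 52.4%. The match at *Trpm3* began 234 bases before the start site.

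Between 20629306 and 30139235 counts per library fell on genes, and 14619 genes passed the filter on low counts. *Nr1h4* itself, the check of the labels, had counts of 333, 274 and 386 in FXR+/+ female 1, male 1 and male 2, the order used throughout, and of 140, 145 and 138 in FXR-/- libraries, and its last exon had 73, 56 and 81 counts against 0 in each FXR-/- library. Its log2 fold change was −1.07 ± 0.160 (SE, edgeR quasi-likelihood test, adjusted p = 0.217). *Ins2* was the most abundant of the 10 β-cell markers, none of which was at 0. The summed CPM (counts-per-million values after TMM scaling) of 15 acinar markers ran from 38223 to 116554 in FXR+/+ and from 54704 to 132290 in FXR-/- libraries, so all libraries held exocrine RNA.

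*Trpm5* was the most abundant of the 9 channel genes in either genotype. Levels were compared between genes as RPKM, the CPM per kilobase of annotated exon. The exon table held 32.3% to 36.6% of the gene counts of a library, and whether the gene counts include reads in introns is not given in the sources used here, so an RPKM from them may hold such reads. From the gene counts, *Trpm5* averaged 41.9 ± 9.04 RPKM in FXR+/+ and 43.6 ± 1.10 in FXR-/- islets (SD, n = 3 each). It made up 69.5% to 78.3% of the summed RPKM of the 9 genes in a library. *Abcc8*, the SUR1 subunit of the β-cell KATP channel, ran from 217 to 256 RPKM in the same libraries. The next channel gene was *Trpc1*, at 6.53 ± 0.615 RPKM in FXR+/+ and 5.84 ± 0.340 in FXR-/- islets, and *Trpm5* exceeded it 4.59-fold to 8.60-fold within a library. *Trpm4*, the closest relative of *Trpm5*, followed at 3.49 ± 0.346 and 3.74 ± 0.116 RPKM. *Trpm2* had 1.95 ± 0.426 and 1.47 ± 0.109, *Trpm3* 1.01 ± 0.153 and 1.05 ± 0.0596, and *Trpv2* 0.544 ± 0.184 and 0.624 ± 0.127 RPKM. From *Trpm5* down to *Trpv4*, the RPKM ranges of neighbours over the 6 libraries did not overlap. Part of this order rests on the division by exon length. As CPM, *Trpm4* (13.4 to 16.5), *Trpm2* (10.4 to 17.0) and *Trpm3* (13.2 to 17.2) overlapped. Most exon reads of these genes sat at the 3′ end, and whether their counts grow with length was not tested. *Trpv4* (0.184 ± 0.0859 and 0.354 ± 0.0723 RPKM) and *Trpa1* (0.266 ± 0.134 and 0.244 ± 0.131 RPKM) could not be placed in order, since their ranges overlapped and each was the higher of the pair in 3 of 6 libraries. *Trpv1*, the capsaicin receptor, was last, with at most 0.0295 RPKM.

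The size of the lead of *Trpm5* depended on the table used. With the counts of the exon table in place of the gene table, *Trpm5* averaged 9.71 and *Trpc1* 3.35 RPKM over the 6 libraries, where the gene table gave 42.8 and 6.18 RPKM. The lead of *Trpm5* over *Trpc1* was then 2.11-fold to 3.48-fold within a library, and its share of the summed RPKM of the 9 genes 59.0% to 69.5%. In the order, *Trpm3* came before *Trpm2*, and the other 7 genes kept their places. The longest protein-coding transcript as length, or library size alone as scaling, moved no gene. Each of these settings also divided by an exon or transcript length, so none of them tested the division itself.

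**Figure D1:**
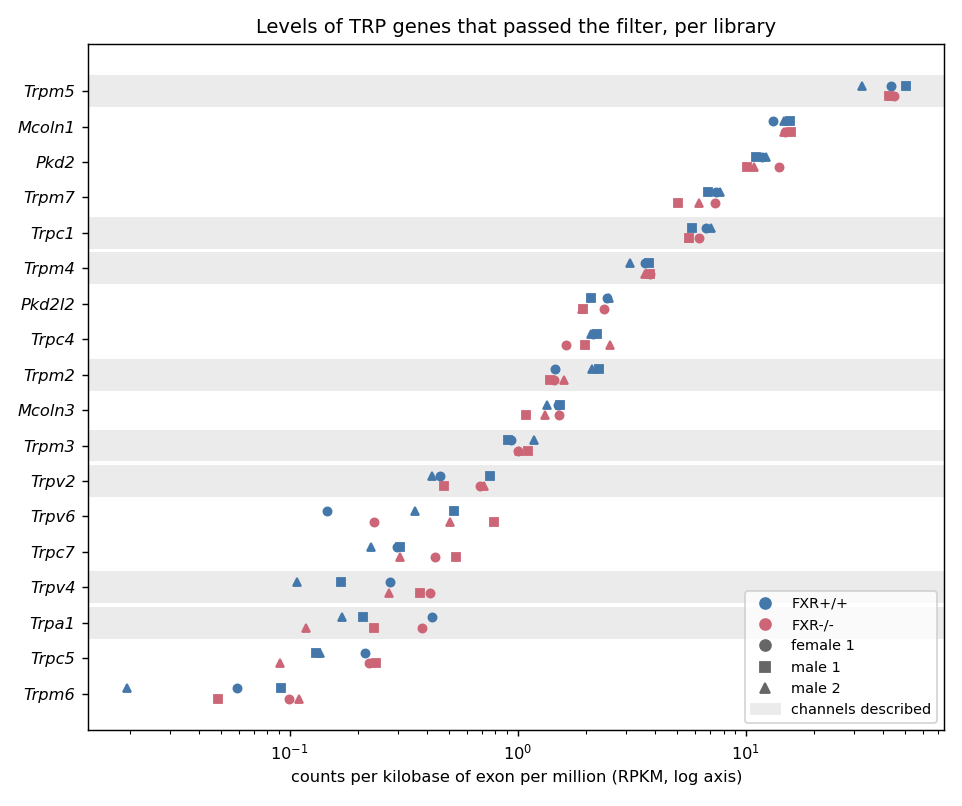
Levels of 18 TRP genes that passed the filter, as CPM per kilobase of exon (RPKM) on a log axis, with 1 point per library (blue FXR+/+, red FXR-/-, shape by replicate) and grey bands for the channels described here. From the gene counts plotted, *Trpm5* lies between 32.3 and 50.3 RPKM, above every other TRP gene shown, while *Trpv4* and *Trpa1* reach at most 0.414 and 0.420 RPKM. Levels from the exon table were computed for the channels described here only.

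None of the channel genes differed between the genotypes at an adjusted p under 0.05. Of the 9 genes, 8 passed the filter, and edgeR called 0 of these 8, as it called 0 of the 14619 genes (0%). At an unadjusted p under 0.05 there were 2 of 8, *Trpm2* lower and *Trpv4* higher in FXR-/- islets, beside 10.3% of all genes tested. The libraries of the genotypes overlapped for each of the 8 genes, so 0 of 8 were apart, where 15.4% of all genes tested were. DESeq2, the other tool run, called 172 genes and 0 of the 6 channel genes for which it gave an adjusted p (for *Trpa1*, *Trpv1* and *Trpv4* it gave none), and edgeR with a replicate block in place of sex called 23 genes and 0 of the 8 channel genes tested. The median log2 fold change of the 8 genes was 0.054, with values from −0.38 to 0.98, and that of all genes tested was 0.0084. In bulk islets, fewer cells of a type and less RNA per cell cannot be told apart.

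**Figure D2:**
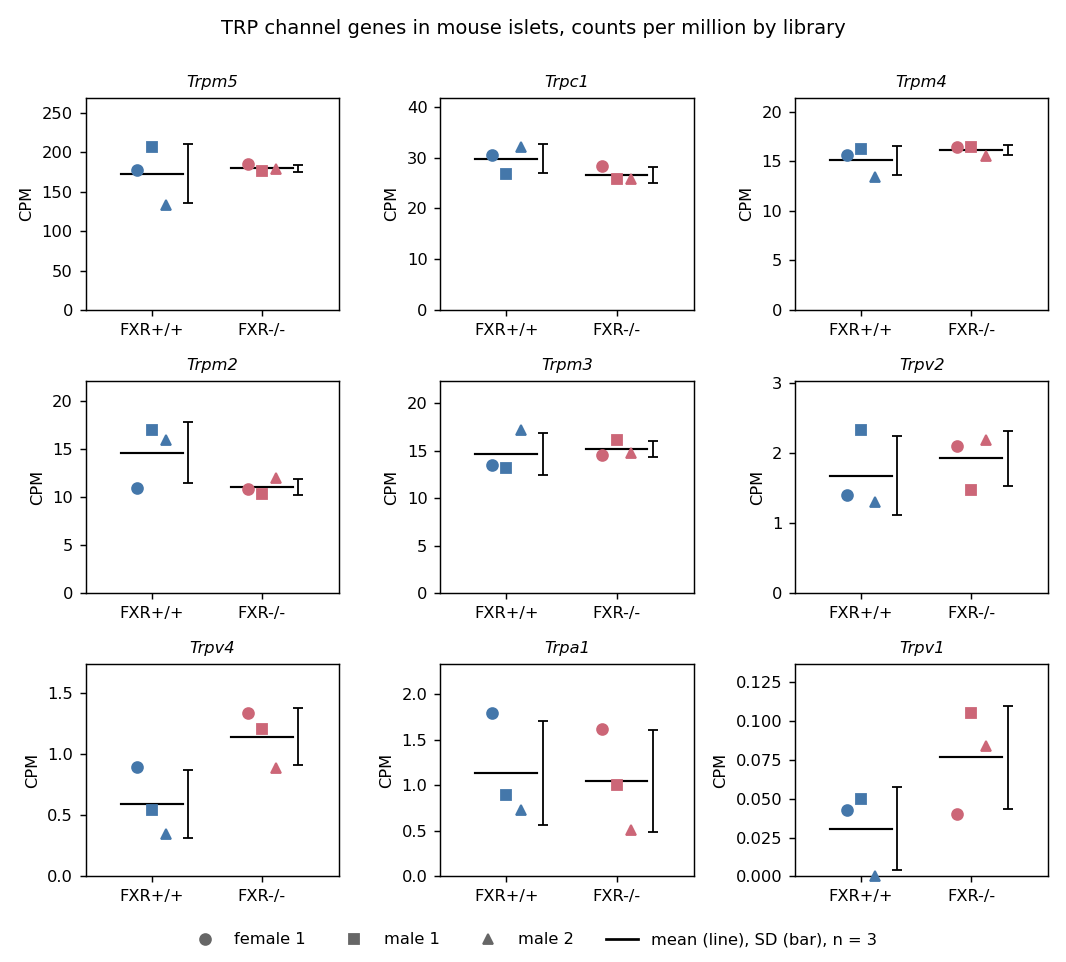
CPM of the 9 TRP channel genes in each library, with FXR+/+ in blue and FXR-/- in red, the mean as a line and the SD as a bar (n = 3). *Trpm5* ranged from 133 to 207 CPM and *Trpv1* from 0 to 0.105 CPM, and the libraries of the genotypes overlap in every panel.

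Of the calcium-activated channels, *Trpm5* is a minus-strand gene of chromosome 7 (143069153 to 143094642 in GENCODE vM21, GRCm38). It had 178, 207 and 133 CPM in FXR+/+ and 185, 176 and 178 CPM in FXR-/- libraries. The FXR+/+ male 1 and male 2 libraries were the highest and the lowest of all, and the FXR-/- libraries lay close together between them. The log2 fold change was 0.057 ± 0.152 (SE, edgeR adjusted p = 0.897), with a 95% interval from −0.30 to 0.41. Its sign rested on the libraries of FXR+/+ mice, with a log2 fold change of −0.11 without FXR+/+ male 2 and 0.25 without FXR+/+ male 1. *Trpm4*, a minus-strand gene of the same chromosome (45302632 to 45333780), had 15.6, 16.2 and 13.4 CPM in FXR+/+ and 16.4, 16.5 and 15.6 CPM in FXR-/- libraries. Here too the FXR+/+ male 2 library was the lowest, and the other 5 libraries lay between 15.6 and 16.5 CPM. The difference was 0.10 ± 0.114 on the log2 scale (edgeR adjusted p = 0.741, 95% interval −0.17 to 0.37). Higher values in FXR-/- were seen in 3 of 3 pairs of the same replicate number for *Trpm4* and in 2 of 3 for *Trpm5*. Other genes lie within both annotations on the opposite strand. *Tssc4* (143069249 to 143071093, 109 to 143 CPM) ends before position 143071529, where the counted exon of *Trpm5* that holds the stop codon begins. The pseudogene *Rpl14-ps1* (45324965 to 45325617, 51.6 to 63.3 CPM) lies within *Trpm4*. The use of strand in the counting is not given in the sources used here, so the gene counts of *Trpm5* and *Trpm4* may hold reads of these genes.

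*Trpm2* encodes a calcium-permeable channel that ADP-ribose opens, and in β-cells it is known for its part in glucose-stimulated insulin secretion and in oxidative stress. The gene is on chromosome 10 (77907722 to 77970563, minus strand), 11.5 Mb from *Nr1h4*. It had 11.0, 17.0 and 15.9 CPM in FXR+/+ and 10.8, 10.4 and 11.9 CPM in FXR-/- libraries. Both male FXR+/+ libraries lay above the rest, while the female FXR+/+ library was within the range of the FXR-/- libraries, so that the groups overlapped. *Trpm2* was 0.610-fold and 0.751-fold in the male pairs and 0.984-fold in the female pair, lower in FXR-/- in 3 of 3. The log2 fold change was −0.38 ± 0.147 (SE, edgeR unadjusted p = 0.0336, adjusted p = 0.461), with a 95% interval from −0.73 to −0.039. It stayed below 0 under each of 18 other settings, from −0.56 in males alone to −0.28 without the FXR-/- male 1 library. The settings reuse the same libraries and are not separate checks. The genotype difference of males minus that of the female pair was −0.54 ± 0.270 (SE, edgeR interaction term, adjusted p = 1.00), a test with 1 female library per genotype that was added after the values were seen. Summed markers of 8 lymphocyte genes ran from 20.7 to 45.3 CPM in FXR+/+ and from 15.8 to 26.3 CPM in FXR-/- libraries (0 of 4 tested above 0 on the log2 scale), and those of 8 macrophage genes from 104 to 131 and from 136 to 160 CPM (7 of 8 above 0). No marker of either list was at 0 in all libraries, and their part in the *Trpm2* values was not tested.

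*Trpm3* encodes a channel opened by pregnenolone sulfate and by heat, and it is known in β-cells as a steroid-sensitive calcium entry path. It spans 22139046 to 22995410 of chromosome 19 (plus strand). It had 13.5, 13.2 and 17.2 CPM in FXR+/+ and 14.6, 16.2 and 14.7 CPM in FXR-/- libraries. The FXR+/+ libraries held both the 2 lowest values and the highest. The log2 fold change of 0.051 ± 0.131 (SE, edgeR adjusted p = 0.893) had a 95% interval from −0.25 to 0.36, and was −0.048 without the FXR+/+ male 1 library. An intron of *Trpm3* holds *Mir204*, whose product miR-204-5p is abundant in β-cells. miR-204-5p is shown because it shares the transcript of *Trpm3*, with its seed (bases 2 to 8) in capitals and its sequence from RefSeq (GRCm38.p6), while small RNA was not measured here.
mmu-miR-204-5p, chr19:22750610-22750631, plus strand: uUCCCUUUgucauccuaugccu
The last exons of *Trpm3* lie under *C330002G04Rik*, an RNA gene annotated on the opposite strand from 22978230 to 23075924, and the use of strand in the counting is not given in the sources used here, so reads of the 2 genes may not have been told apart.

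*Trpc1* encodes a subunit of receptor-operated cation channels and is located on chromosome 9 (95705082 to 95750375, minus strand). It had 30.5, 26.7 and 32.1 CPM in FXR+/+ and 28.4, 25.7 and 25.7 CPM in FXR-/- libraries. In FXR-/- islets the values were the lower of each of the 3 pairs, and the FXR+/+ male 1 library fell among the FXR-/- libraries. The log2 fold change was −0.16 ± 0.0995 (SE, edgeR adjusted p = 0.555, 95% interval −0.40 to 0.069), and it ranged from −0.26 to −0.074 under the other settings.

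Of the TRPV genes, *Trpv4* encodes a channel opened by swelling and warmth that is widespread in endothelium and epithelia. Its position is 114622152 to 114658421 on chromosome 5 (minus strand). It was counted only 21, 11 and 11 times in FXR+/+ and 33, 23 and 21 times in FXR-/- libraries, or 0.895, 0.545 and 0.347 CPM against 1.34, 1.21 and 0.884 CPM. Each FXR-/- library was above the FXR+/+ library of the same number, by 1.49-fold, 2.22-fold and 2.55-fold, while the FXR+/+ female and the FXR-/- male 2 library overlapped by a narrow margin. The log2 fold change was 0.98 ± 0.366 (SE, edgeR unadjusted p = 0.0298, adjusted p = 0.457), with a wide 95% interval from 0.13 to 1.84. *Trpv4* passed the filter through 5 of 6 libraries, the FXR+/+ male 2 library being under the minimum. The difference was 0.71 with a term for acinar RNA, 0.73 without the FXR+/+ male 2 library, and at most 1.25, without the FXR+/+ female library. With the sex term, a fit without either female library rests on the males, and males alone also gave 1.25. Of endothelial and of stellate cell markers edgeR called 0, with 5 of 7 and 0 of 9 at an unadjusted p under 0.05, beside 10.3% of all genes tested. Each of the 5 was higher in FXR-/- islets. Other lists also had values above 0 on the log2 scale, 8 of 8 nerve and glial and 13 of 15 acinar markers, but 0 of 4 lymphocyte markers. The summed CPM of 7 endothelial markers was 376 to 483 in FXR+/+ and 488 to 768 in FXR-/- libraries, without overlap, and all 7 had a log2 fold change above 0 (median 0.46). The 9 stellate cell and fibroblast markers summed to 156 to 270 and 239 to 307 CPM, which overlapped, and all 9 were above 0 (median 0.76). Within FXR+/+, the sums were highest in the male 1 library and *Trpv4* in the female library. No marker of either list was at 0 in all libraries, and the part of these cells in the *Trpv4* values was not tested.

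*Trpv2*, a stretch- and growth-factor-responsive channel (chromosome 11, 62574486 to 62600515, plus strand), had 1.41, 2.33 and 1.29 CPM in FXR+/+ and 2.11, 1.47 and 2.19 CPM in FXR-/- libraries. The values of the genotypes lay across each other, with FXR+/+ male 1 as the highest of all. The log2 fold change was 0.23 ± 0.320 (SE, edgeR adjusted p = 0.787, 95% interval −0.51 to 0.98). *Trpv1* (chromosome 11, 73234292 to 73261242, plus strand) was counted 1, 1 and 0 times in FXR+/+ and 1, 2 and 2 times in FXR-/- libraries. Every library was below 3 counts, the limit that a count of 0 allows (0.0947 to 0.158 CPM, for counting error only), so *Trpv1* was not tested and no fold is given.

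*Trpa1* (chromosome 1, 14872648 to 14918862, minus strand) encodes the irritant receptor that mustard oil opens. It was counted 42, 18 and 23 times in FXR+/+ and 40, 19 and 12 times in FXR-/- libraries, or 1.79, 0.892 and 0.726 CPM against 1.62, 0.999 and 0.505 CPM. The female library was the highest of either genotype, and no male library was above 0.999 CPM. Between the genotypes the log2 fold change was −0.13 ± 0.337 (SE, edgeR adjusted p = 0.895, 95% interval −0.92 to 0.66), and it was 0.085 without the FXR-/- male 2 library. Looked at after these values were seen, the sex term of the same fit was −1.15 ± 0.337 for males against females (SE, edgeR unadjusted p = 0.0104, adjusted p = 0.552). It was called for 0 of the 8 channel genes and for 0.0547% of all genes tested. In the same libraries the 6 α-cell markers summed to 37628 and 38238 CPM in females and 21582 to 30031 CPM in males. The 10 β-cell markers were apart in the other direction, at 195395 and 187768 CPM in females and 196244 to 272599 CPM in males. The part of either list in the *Trpa1* values was not tested.

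**Figure D3:**
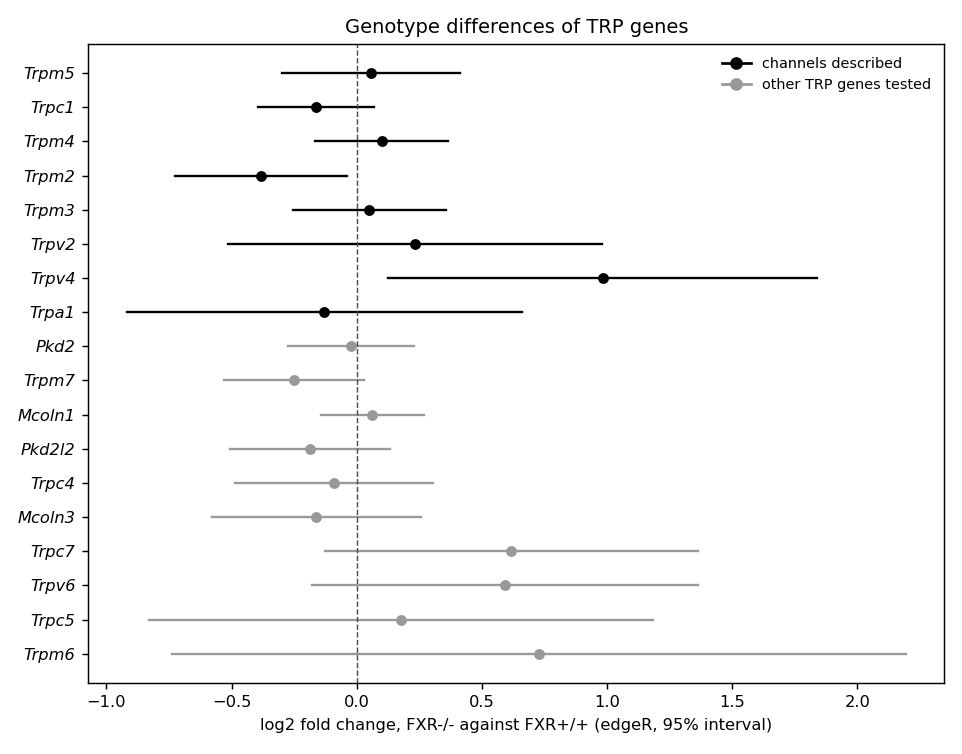
Log2 fold change of 18 tested TRP genes, FXR-/- against FXR+/+, with its 95% interval from edgeR (black, channels described here; grey, other TRP genes). The intervals of *Trpm2* (−0.73 to −0.039) and *Trpv4* (0.13 to 1.84) do not cross 0, and neither passed the adjustment over all genes.

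The rest of the TRP superfamily differed no more clearly. Of 17 such genes examined, 10 passed the filter, and edgeR called 0 of them, with 0 at an unadjusted p under 0.05 and 0 called by DESeq2. Their median log2 fold change was 0.019. *Mcoln1*, the lysosomal channel TRPML1, *Pkd2*, which encodes polycystin-2, and *Trpm7*, a magnesium-permeable channel with a kinase domain, were the most abundant. By the gene counts they averaged 14.8, 11.7 and 6.75 RPKM over the 6 libraries, in that order the next TRP genes after *Trpm5*. Their levels from the exon table, by which *Trpm5* averaged 9.71 RPKM, were not computed, so the place of *Trpm5* above them rests on the gene counts. *Mcoln1* differed by 0.061 ± 0.0880 and *Pkd2* by −0.023 ± 0.108 on the log2 scale (SE, edgeR adjusted p = 0.797 and 0.944). *Trpm7* had 52.8, 48.4 and 54.7 CPM in FXR+/+ and 52.1, 35.8 and 44.2 CPM in FXR-/- libraries, lower in 3 of 3 pairs, and its log2 fold change of −0.25 ± 0.119 had the lowest adjusted p of these 10 genes (edgeR, 0.491). *Pkd2l2* (−0.19), *Mcoln3* (−0.16) and *Trpc4* (−0.091) had values below 0 on the log2 scale, and *Trpc5* (0.18), *Trpv6* (0.59), *Trpc7* (0.62) and *Trpm6* (0.73) above 0. Those last 4 were at or under 2.31 CPM in every library.

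Genes that act with the channels were grouped by function. Store-operated calcium entry, IP3 receptors, Gq proteins and phospholipase C gave 16 genes, of which edgeR called 0. At an edgeR unadjusted p under 0.05 there were 2 of 16, both lower in FXR-/- islets, beside 10.3% of all genes tested. *Itpr2*, the type 2 IP3 receptor through which the endoplasmic reticulum releases calcium, had 34.2, 41.1 and 36.0 CPM in FXR+/+ and 25.5, 27.5 and 26.3 CPM in FXR-/- libraries. Its groups did not overlap, and the log2 fold change was −0.49 ± 0.0905 (SE, edgeR adjusted p = 0.225). DESeq2 called it, as 1 of 172 genes, at an adjusted p of 0.00551. *Stim2*, a calcium sensor of the endoplasmic reticulum, had a log2 fold change of −0.24 ± 0.0984 (SE, edgeR adjusted p = 0.478) with groups that were likewise apart. *Orai1*, a pore subunit of the store-operated channel, was the third gene of the 16 whose groups were apart, at 4.65, 5.15 and 4.51 CPM in FXR+/+ and 5.35, 6.05 and 5.85 CPM in FXR-/- libraries (log2 fold change 0.27 ± 0.151, SE, edgeR adjusted p = 0.536). The 3 of 16 genes apart are near the share over all genes tested, 15.4%. The median over the 16 genes was 0.035.

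ADP-ribose metabolism, which makes and breaks down the ligand of TRPM2, gave 7 tested genes, of which edgeR called 0. *Cd38*, an ectoenzyme that forms ADP-ribose from NAD, was the 1 gene of 7 with an unadjusted p under 0.05, beside 10.3% of all genes tested. It had 4.52, 5.35 and 5.33 CPM in FXR+/+ and 6.48, 7.89 and 6.52 CPM in FXR-/- libraries, without overlap, and a log2 fold change of 0.46 ± 0.150 (SE, edgeR adjusted p = 0.430). The groups were also apart for *Adprhl2* (0.14) and *Sarm1* (0.16), with values above 0 on the log2 scale, and for *Parg* (−0.19). With *Cd38* these were 4 of 7 genes, beside 15.4% of all genes tested. *Adprhl2*, *Sarm1* and *Parg* were picked after their values were seen. The median of the 7 genes was 0.078. Taste transduction, which opens TRPM5 in taste cells, gave 8 genes of which 4 passed the filter, with 0 called and 0 at an unadjusted p under 0.05. Its most abundant gene was *Itpr3*, the type 3 IP3 receptor, with mean levels of 111 and 120 CPM in FXR+/+ and FXR-/- islets, while *Gnat3*, the taste G protein gustducin, averaged 0.164 and 0.103 CPM and was not tested. Of 17 binding partners and regulators edgeR called 0. *Pkd1*, which encodes the polycystin-1 that pairs with polycystin-2, was the 1 of 17 with an unadjusted p under 0.05, beside 10.3% of all genes tested. *Pkd1* had 195, 218 and 214 CPM in FXR+/+ and 184, 172 and 179 CPM in FXR-/- libraries, and a log2 fold change of −0.23 ± 0.0831 (SE, edgeR adjusted p = 0.457). Its groups were apart, as were those of *Homer3*, at 0.28 on the log2 scale, 2 of 17 beside 15.4% of all genes tested.

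Along the genes, most exon reads sat at the 3′ end. The exon table, counted by a rule that is not given in the sources used here, held 18.5% of the gene counts for *Trpm2*, 17.2% for *Trpm4*, 22.9% for *Trpm5*, 44.8% for *Trpm3* and 54.1% for *Trpc1*, where the median over 14034 genes with at least 100 counts was 50.1%. For *Trpm5*, 90.7% of its 5661 exon counts were in the exon that holds the stop codon (143071529 to 143072436), and for *Trpm3* 86.4% of 961 were in exon 30 (22986856 to 22989884). This share was 73.2% for *Trpc1*, 63.6% for *Trpm2* and 59.7% for *Trpm4*, but 14.3% of 49 exon counts for *Trpv2*. *Trpa1* had counts in only 2 exons, and 97.4% of its 38 exon counts were in the last. In all, 10 exons of 5 of these genes could be tested, and edgeR called 0 of them, where 0.0185% of all 26998 exons tested were called. The exon with the stop codon had a log2 fold change of −0.33 ± 0.245 in *Trpm2*, −0.21 ± 0.163 in *Trpc1*, 0.042 ± 0.154 in *Trpm5*, 0.060 ± 0.194 in *Trpm3* and 0.14 ± 0.243 in *Trpm4* (SE), each with the sign of its gene. The reads of these exons may be among the gene counts, so the shared sign is not a separate check. *Trpc1* alone had a second large share at the 5′ end, where exon 13 (95749668 to 95750358) was counted 70, 71 and 73 times without the knockout and 67, 82 and 72 times with it, a log2 fold change of 0.19 ± 0.242 (SE).

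Other genes followed the profiles of single channels over the 6 libraries closely. Likeness was the root mean square difference of log2 CPM, each gene centred on its own mean. The nearest genes were *Fbxo46* and *Thra* for *Trpm5* (0.0573 and 0.0587), *Gucy1b3* and *1700037H04Rik* for *Trpm4* (0.0220 and 0.0260), *Lurap1* and *Nek10* for *Trpm2* (0.0777 and 0.0940), and *Copg1* and *Fancc* for *Trpm3*. For *Trpc1* they were *Nfyb* and *Vprbp*, for *Trpv2* *Magee2* and *Btc*, for *Trpa1* *Slc27a2* and *Cacna2d3*, and for *Trpv4* *Cacna1g* and *Lpl* (0.168 and 0.172). With 14619 genes and 6 libraries some genes lie near any profile, and the median difference from all genes was between 0.202 and 0.620 for the 8 channels.

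**Figure D4:**
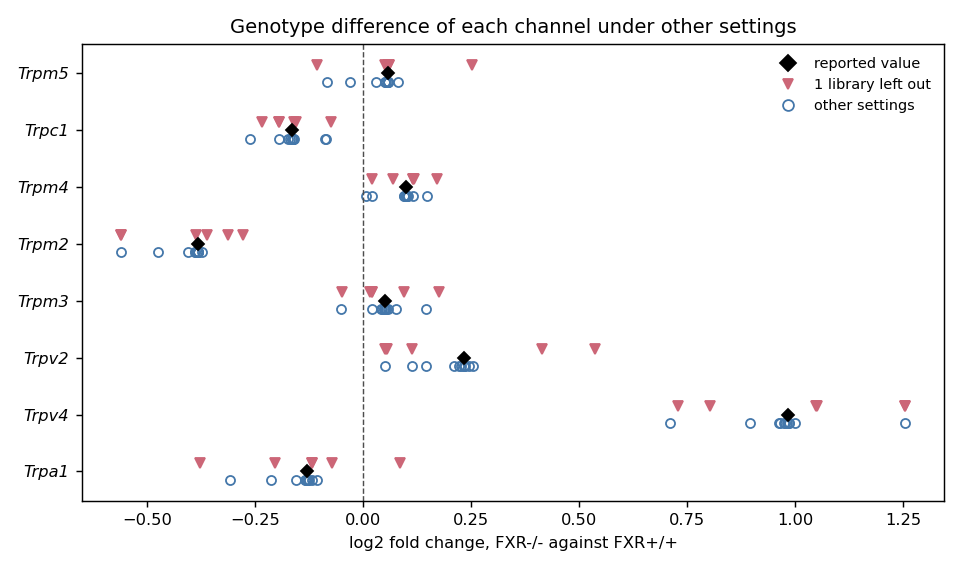
Log2 fold change of each of the 8 tested channel genes under the reported setting (black), with 1 library left out (red) and under other settings (blue). *Trpm2* stays below 0 (−0.56 to −0.28) and *Trpv4* above 0 (0.71 to 1.25), while *Trpm5*, *Trpm3* and *Trpa1* have values on both sides of 0.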

How the data were processed

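RNA-seq counts of 6 islet libraries were re-analysed, with groups taken from the labels. The authors deposited whole-number counts per gene and per exon without normalization. The submitters' processing notes name HISAT with no version, and the counting rule, its use of strand and the build are not given in the sources used here. Exon positions are those of GRCm38, and 86.7% of the 139263 listed exons match GENCODE vM21. The authors' own tables of comparisons hold fold changes and p-values and were not used.

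Gene counts were fitted in R 4.3.3 with edgeR 4.0.16 (filterByExpr with minimum count 10 and minimum total 15, TMM, glmQLFit and glmQLFTest, terms for sex and genotype, Benjamini-Hochberg adjustment over all tested genes, called at an adjusted p under 0.05). Exon counts were fitted in the same way. The scripts were tested on simulated data. CPM and RPKM used TMM-scaled library sizes and GENCODE basic exon lengths, and log2 CPM a prior count of 2. Alternatives were DESeq2 1.42.0, other scalings and filters, no sex term, a replicate block, males alone, acinar adjustment, summed exon counts and leaving out each library. Libraries of the same replicate number deviated together (Pearson r over genes of deviations from the genotype means 0.361, 0.367 and 0.323, at most 0.0200 for other pairs). Deviations from a genotype mean sum to 0 for each gene. Positive values for some pairs thus lower those of other pairs by arithmetic, and the contrast is not added evidence of pairing. The labels name no pairing, so pairs rest on the data alone. They were used for the counts of pairs and the replicate block, and the main fit had no term for them. Female libraries also share sex, and acinar RNA was highest in the male 1 library of either genotype. The part of sex and acinar RNA in this likeness was not tested.

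The channel genes, lists and tests were chosen with earlier results of these data known. Named were every channel gene, other TRP genes that passed the filter, and list genes with an unadjusted p under 0.05 (otherwise the most abundant). The 2 genes nearest in profile and genes that overlap a channel gene were also named. Further overlapping genes, *Gm22394* and *Gm22871* at *Trpm2* and *Gm22506*, *Gm27151* and *AC124513.1* at *Trpm3*, are not in the gene count table and were not described. *Gnat3*, *Orai1*, *Adprhl2*, *Sarm1*, *Parg* and *Homer3* were chosen after their values were seen. A gene of the TRP superfamily list is not reported here.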

Additional observations from a re-analysis of the deposited data

How the results depend on the processing

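Across 141 refitted fold changes of the 8 tested channel genes, 135 kept their direction and none passed an adjusted p of 0.05 in edgeR or DESeq2. These are not separate checks, since all reuse the same 6 libraries. Males alone and the fits without either female library are also the same contrast between male libraries. With library size alone *Trpm3* was at −0.050 and *Trpm5* at −0.030 on the log2 scale, and with a term for acinar RNA *Trpm5* was at −0.082. Leaving out each library gave −0.38 to 0.085 for *Trpa1* (above 0 without FXR-/- male 2), −0.048 to 0.18 for *Trpm3* (below 0 without FXR+/+ male 1) and −0.11 to 0.25 for *Trpm5* (below 0 without FXR+/+ male 2). The cause of these 6 changes of sign was not tested. With the replicate block, 0 channel genes were called (lowest adjusted p = 0.253 for *Trpv4* and 0.261 for *Trpm2*, each with 0.889 as its highest over all settings), and of all genes 23 were called against 0. The paired fit also called *Nr1h4* (adjusted p = 0.0441) and changed no other call of a named gene or list. The count of all genes called was 7 with the acinar term, 4 with summed exon counts and 172 by DESeq2, which also called 1 pathway gene (*Itpr2*) and *Nr1h4* (adjusted p = 9.67e-05). Summed exon counts left 5 channel genes to test. Leaving out each library gave 0 calls for all genes and for the lists each time, and 0 to 2 channel genes with an unadjusted p under 0.05 (0 without FXR+/+ male 2, FXR-/- male 1 or FXR-/- male 2). Scaling by library size alone shifted the median over all genes from 0.0084 to −0.087 on the log2 scale, and the share of higher values among genes with an unadjusted p under 0.05 from 59.8% to 29.0%. Depth limits *Trpv1*, with at most 2 counts, and *Trpv4* and *Trpa1*, whose intervals are the widest of the 8.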
